A study of Mus musculus with 12 samples.

Results

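The 10 heat shock genes described here encode the heat shock transcription factor HSF1 and chaperones of the cytosol and the mitochondrial matrix, some constitutive and some induced by heat. They are Hsf1, Hspa8, Hsph1, Dnaja1, Dnajb1, Hsp90aa1, Hsp90ab1, Stip1, Hspd1 and Hspe1, chosen by symbol out of 55487 genes listed, and all 10 were among the 11379 genes tested. RNA was sequenced from differentiating G1E-ER4 cells. This mouse line of erythroid progenitors has no GATA1 of its own and differentiates when estradiol switches on an introduced GATA1 fusion. All cells were nucleofected with siRNA 2 times at an interval of 24 h, received 100 nM β-estradiol with the second dose, and were collected 24 h later. In siZIP10 plus DTPA the siRNA targeted ZIP10, a zinc importer encoded by Slc39a10, and 25 µM of the extracellular zinc chelator DTPA was present from the onset of differentiation. In siZIP10 the same siRNA was given without DTPA, in siControl plus DTPA a control siRNA was given with 25 µM DTPA, and in siControl the control siRNA was given alone. There were 3 libraries each of siZIP10 plus DTPA, siZIP10 and siControl and 2 of siControl plus DTPA, all labelled as biological replicates. The third siControl plus DTPA library carried the same value as siZIP10 replicate 1 at every gene and was left out. The model is 1 cell line with 1 ZIP10 siRNA label and no zinc added back, and in bulk RNA a change in the cells present and a change in RNA per cell cannot be told apart.

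Heat shock proteins are chaperones that bind unfolded polypeptides. HSF1 is held inactive in unstressed cells, and when unfolded proteins accumulate it forms trimers that bind inverted repeats of GAA and drive chaperone genes. HSP70 proteins take up clients delivered by J-domain proteins, HSP110 proteins exchange their nucleotide, and clients can pass through STIP1, also called HOP, to HSP90. Inside mitochondria, imported proteins fold in a chamber of HSP60 closed by HSP10. In human erythroid precursors HSP70 in the nucleus protects GATA1 from caspase cleavage.

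The libraries held 19.62 M to 24.68 M reads, recovered from the values, which are in TPM (abundance per gene length, scaled to a total of 1000000 in each library), and 15225 to 16147 genes above 0. Mt1 and Mt2, metallothionein genes induced by zinc, were low wherever DTPA was given: Mt2 averaged 22.1 TPM in siZIP10 plus DTPA, 2413 TPM in siZIP10, 17.1 TPM in siControl plus DTPA and 2039 TPM in siControl. Slc39a10 averaged 5.10 TPM in siZIP10 plus DTPA, 0.627 TPM in siZIP10, 21.1 TPM in siControl plus DTPA and 2.62 TPM in siControl, so that the group with both treatments was below siControl plus DTPA but above siControl. The erythroid markers (11 of 12 listed) summed to 38450 to 46310 TPM in siZIP10 plus DTPA, 46940 to 50610 TPM in siZIP10, 49710 to 55730 TPM in siControl plus DTPA and 40760 to 47610 TPM in siControl. The siZIP10 plus DTPA libraries stood apart in make-up. Mitochondrial rRNA took 1.44% to 1.45% of their TPM, 0.372% to 0.421% in siZIP10, 0.335% to 0.352% in siControl plus DTPA and 0.262% to 0.282% in siControl. Nuclear protein-coding genes took 77.3% to 79.6% of TPM in siZIP10 plus DTPA and 82.9% to 84.05% in siZIP10. Their share was 82.6% to 83.6% in siControl plus DTPA and 83.55% to 83.8% in siControl. The 6 megakaryocyte markers summed to 57.3 to 58.5 TPM in siZIP10 plus DTPA, against 16.2 to 26.7 TPM over the other groups, carried by Gp1ba (27.1 TPM) and Itgb3 (22.4 TPM), with Ppbp at 0 in every library. Gp9 averaged 1.51 TPM in siZIP10 plus DTPA, 0.733 TPM in siZIP10, 3.34 TPM in siControl plus DTPA and 1.76 TPM in siControl, and so was not highest with both treatments. The 6 mast cell and basophil markers summed to 96.7 to 101.4 TPM in siZIP10 plus DTPA, against 34.7 to 42.9 TPM over the other groups, carried by Gata2 (77.1 TPM) and Hdc (21.6 TPM), with Cpa3 at 0.0317 TPM and Ms4a2, Fcer1a and Mcpt8 at 0 throughout. The 7 myeloid markers summed to 41.7 to 44.3 TPM in siZIP10 plus DTPA, against 13.9 to 23.2 TPM over the other groups, carried by Spi1 (36.6 TPM) and Cd68 (6.00 TPM), with Mpo, Elane and Itgam at 0 throughout. The 6 lymphoid markers summed to 3.36 to 4.17 TPM in siZIP10 plus DTPA, against 0.564 to 1.80 TPM over the other groups, with Cd8a at 0 throughout. The part of these shifts in the results below was not tested.

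The start sites of 6 of the 10 genes are covered by 11 windows of 250 bases before to 50 bases after the start in the RefSeq promoter table (GRCm38.p6, the assembly of mm10). A heat shock unit is GAA or its reverse complement TTC, and neighbouring units alternate with NN between them. A pair of units (GAANNTTC or TTCNNGAA, each its own reverse complement, so that both strands are covered) was found in 15.1% of all 32851 windows, a run of 3 units, which always contains 2 overlapping pairs, in 0.603%, and CCAAT or its reverse complement ATTGG in 37.4%. Hspe1 and Hspd1 lie head to head and share 1 stretch of 18 bases that holds 4 alternating units, and so 3 overlapping pairs of units, chr1:55088059-55088076, which is 89 bases before the start of Hspe1 and, read on the other strand, 144 bases before a second start of Hspd1. In GENCODE it lies in an untranslated exon of an Hspd1 transcript. Hsph1 holds a pair of units before its 2 listed starts and 3 units after them, Dnaja1 a pair of units before 1 of its 3 listed starts, and no pair or run of 3 was found in the windows of Dnajb1 or Stip1. Starts here are those of RefSeq. In GENCODE the Dnaja1 site lies inside an exon of a Dnaja1 transcript that starts earlier, and of a lincRNA on the other strand. Both Hsph1 sites overlap Hsph1 exons there. The sequences below show these sites and, for the gene that changed most, Stip1, the whole upstream stretch. They read 5′ to 3′ on the strand of the gene. Capitals mark the paired heat shock units, and in Stip1 the CCAAT letters. A match describes the letters only.
Hspe1 and Hspd1 shared site, chr1:55088053-55088082, plus strand: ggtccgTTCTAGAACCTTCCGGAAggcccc
Hsph1 after the RefSeq starts, chr5:149636279-149636308, minus strand: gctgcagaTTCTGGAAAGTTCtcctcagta
Hsph1 before the RefSeq starts, chr5:149636351-149636380, minus strand: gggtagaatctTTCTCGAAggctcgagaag
Dnaja1 before its first RefSeq start, chr4:40722333-40722362, plus strand: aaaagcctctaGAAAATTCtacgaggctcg
Stip1 upstream stretch, chr19:7040027-7040276, minus strand: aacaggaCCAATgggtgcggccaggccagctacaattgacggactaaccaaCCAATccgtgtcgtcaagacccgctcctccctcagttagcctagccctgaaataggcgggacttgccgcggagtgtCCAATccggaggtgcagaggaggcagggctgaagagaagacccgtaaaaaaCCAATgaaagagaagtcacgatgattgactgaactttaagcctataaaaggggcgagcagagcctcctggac

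In siControl the 10 genes ordered by TPM, which is per length, as Hspa8 (1107 ± 23.1 TPM), Hsp90ab1 (635 ± 13.6), Hsp90aa1 (423 ± 24.3), Hspd1 (358 ± 8.31), Hspe1 (288 ± 12.4), Dnaja1 (261 ± 8.80), Stip1 (255 ± 8.22), Dnajb1 (75.4 ± 1.70), Hsph1 (63.8 ± 1.43) and Hsf1 (9.33 ± 0.880 TPM, SD, n = 3 for each gene). The libraries of Dnaja1 and Stip1 overlapped there, and every other pair of neighbours in the order was separate. Hspa8 held rank 98 among the 11379 genes by mean level, Stip1 rank 861, Dnajb1 rank 2553, Hsph1 rank 3200 and Hsf1 rank 8172, so the members spanned a wide range of levels. With both treatments Stip1 no longer stood beside Dnaja1: it averaged 119.6 ± 2.67 TPM against 215 ± 7.92 TPM of Dnaja1 in siZIP10 plus DTPA (SD, n = 3). Dnaja1 also stood above Hspe1 (196 ± 7.89 TPM) in siZIP10 plus DTPA, whereas the 2 overlapped in siZIP10 and Hspe1 was higher in siControl plus DTPA and siControl. The 10 genes together made up 0.292% to 0.307% of all TPM in siZIP10 plus DTPA, 0.320% to 0.332% in siZIP10, 0.317% to 0.320% in siControl plus DTPA and 0.340% to 0.357% in siControl.

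**Figure D1:**
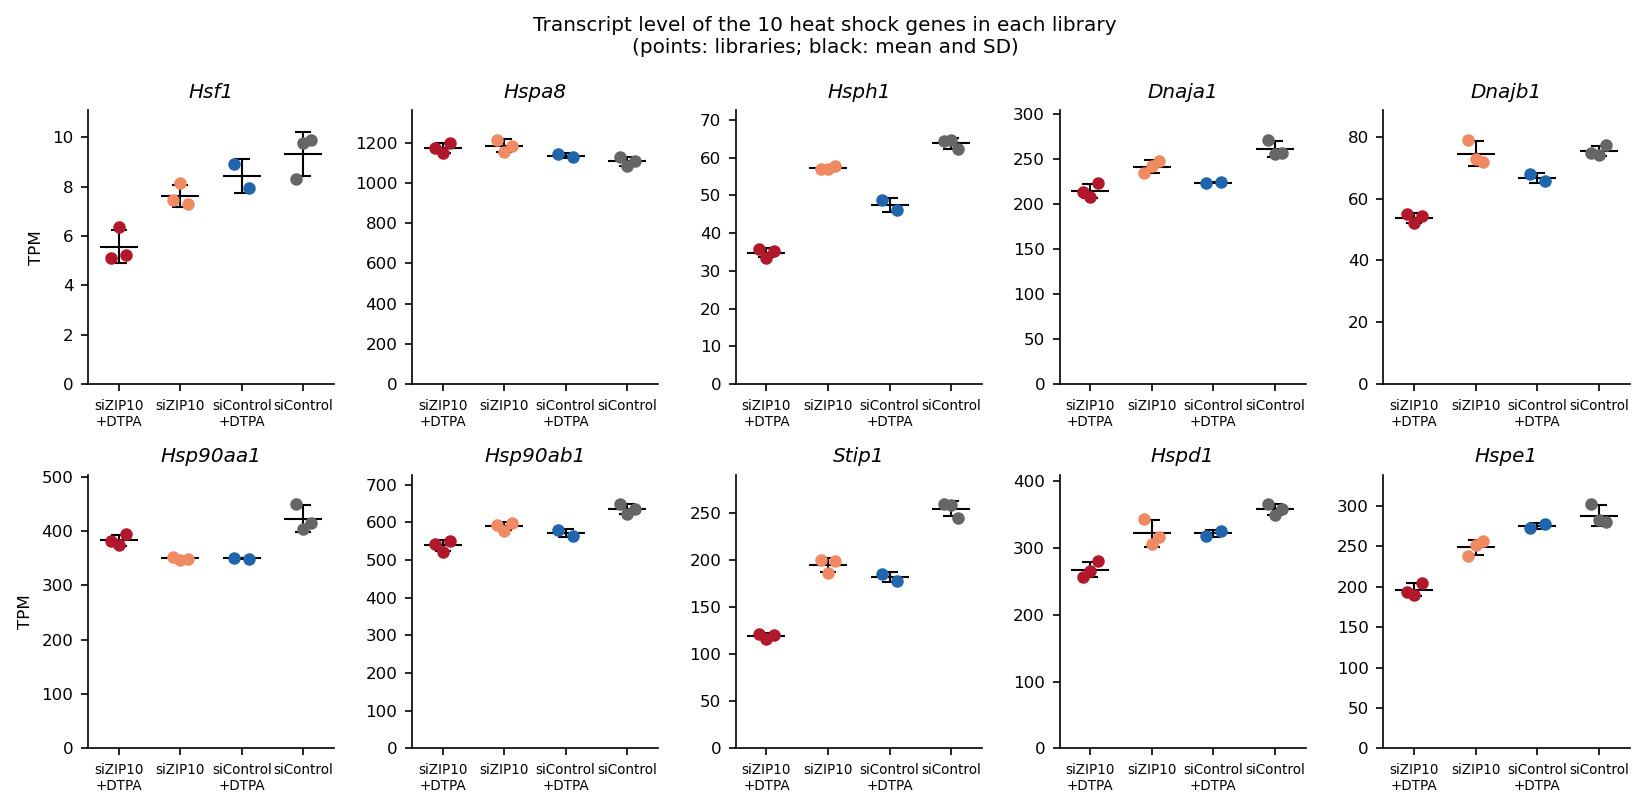
TPM of each heat shock gene (vertical axes start at 0 and differ between genes) in siZIP10 plus DTPA, siZIP10, siControl plus DTPA and siControl. Each point is a library and black marks are the mean and SD. Stip1 steps down to 119.6 TPM in siZIP10 plus DTPA, against 255 TPM in siControl, while Hspa8 stays between 1083 and 1215 TPM in all 11 libraries.

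Hsf1 (ENSMUSG00000022556.11, mm10 chromosome 15, 76477422 to 76501913, plus strand) encodes the transcription factor of the heat shock response. It had 5.12, 6.35 and 5.24 TPM in siZIP10 plus DTPA, 7.44, 8.14 and 7.30 TPM in siZIP10, 8.91 and 7.95 TPM in siControl plus DTPA, and 8.31, 9.76 and 9.91 TPM in siControl, from 258 to 482 reads a library. The libraries with both treatments were the lowest and did not overlap those of any other group, and the siControl plus DTPA and siControl libraries overlapped. With both treatments Hsf1 fell to 59.7% of siControl (log2 change −0.65, SE 0.094, adjusted p = 1e-04; limma's moderated test on log2(TPM + 1), p adjusted over 11379 genes after Benjamini and Hochberg, threshold 0.05, as for every adjusted p below). The change was −0.26 (SE 0.094, adjusted p = 0.0627) with siZIP10 alone and −0.13 (SE 0.11, adjusted p = 0.403) with DTPA alone, neither past the threshold. Hsf1 also fell with DTPA within the knockdown (−0.40, adjusted p = 0.00374) and with the knockdown within DTPA (−0.52, adjusted p = 0.00165). The change with siZIP10 alone passed the threshold without siControl replicate 1 (−0.33, adjusted p = 0.0332) and when siZIP10 plus DTPA replicate 2 was left out (−0.26, adjusted p = 0.0407), and also with voom on the recovered reads (−0.27, adjusted p = 0.0138).

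Among the 4 members of the cytosolic HSP70 machinery, the HSP110 gene Hsph1 and the J-domain gene Dnajb1 fell most with both treatments, and Hspa8, the constitutive HSP70 also called HSC70, did not fall. Hsph1 (ENSMUSG00000029657.15, chromosome 5, 149614287 to 149636376, minus strand), a nucleotide exchange factor of HSP70, had 35.7, 33.4 and 35.2 TPM in siZIP10 plus DTPA, 56.9, 56.9 and 57.8 TPM in siZIP10, 48.8 and 46.1 TPM in siControl plus DTPA, and 64.5, 64.8 and 62.2 TPM in siControl. No 2 groups overlapped, and the group with both treatments was the lowest. Hsph1 fell with both treatments to 54.5% of siControl (−0.86, SE 0.035, adjusted p = 4.25e-09), with siZIP10 alone to 89.6% (−0.15, SE 0.035, adjusted p = 0.00722) and with DTPA alone to 74.3% (−0.42, SE 0.039, adjusted p = 3.06e-05). Within the knockdown DTPA left 60.8% of it (−0.70, adjusted p = 3.26e-08), and within DTPA the knockdown left 73.3% (−0.44, adjusted p = 5.02e-06).

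Dnajb1 (ENSMUSG00000005483.10, chromosome 8, 83608193 to 83612653, plus strand) encodes a J-domain protein, HSP40, that hands unfolded proteins to HSP70. It had 55.0, 52.0 and 54.4 TPM in siZIP10 plus DTPA, 79.1, 72.8 and 71.9 TPM in siZIP10, 68.0 and 65.6 TPM in siControl plus DTPA, and 74.7, 74.2 and 77.3 TPM in siControl. The siZIP10 and siControl libraries overlapped, and those with both treatments lay apart below all others. Dnajb1 fell with both treatments to 71.4% of siControl (−0.48, SE 0.040, adjusted p = 1.44e-06) and with DTPA alone to 88.6% (−0.17, SE 0.045, adjusted p = 0.0158), and the change with siZIP10 alone was −0.02 (SE 0.040, adjusted p = 0.819). Its call with DTPA alone was lost without siControl replicate 3 (−0.15, adjusted p = 0.0529) and without siControl plus DTPA replicate 2 (−0.15, adjusted p = 0.118). Dnaja1 (ENSMUSG00000028410.13, chromosome 4, 40722150 to 40737149, plus strand), a J-domain protein with a zinc-binding domain of cysteines, changed less. It had 214, 208 and 223 TPM in siZIP10 plus DTPA, 234, 243 and 248 TPM in siZIP10, 223 and 224 TPM in siControl plus DTPA, and 272, 256 and 257 TPM in siControl. Every treated library lay below every siControl library. Dnaja1 fell with both treatments to 82.2% of siControl (−0.28, SE 0.035, adjusted p = 3.1e-05), with siZIP10 alone to 92.5% (−0.11, SE 0.035, adjusted p = 0.0318) and with DTPA alone to 85.6% (−0.22, SE 0.039, adjusted p = 0.00154). Its call with siZIP10 alone was lost without siControl replicate 1 (−0.08, adjusted p = 0.105), siZIP10 replicate 1 (−0.09, adjusted p = 0.109) or siZIP10 replicate 2 (−0.12, adjusted p = 0.0651). Dnaja1 overlaps Smu1 (72.9 TPM) by 608 bases on the opposite strand, and the strand setting of the counting is not given in the sources used here, so its level is uncertain.

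Hspa8 (ENSMUSG00000015656.17, chromosome 9, 40800984 to 40810087, plus strand) had 1172, 1148 and 1200.0 TPM in siZIP10 plus DTPA, 1215, 1151 and 1185 TPM in siZIP10, 1143 and 1128 TPM in siControl plus DTPA, and 1128, 1083 and 1111 TPM in siControl, from 29623 to 41083 reads. The siControl libraries were the lowest, with 1 of them level with a siControl plus DTPA library. Hspa8 rose to 106.0% of siControl with both treatments (0.08, SE 0.027, adjusted p = 0.0179) and to 106.9% with siZIP10 alone (0.10, SE 0.027, adjusted p = 0.0213), and the change with DTPA alone was 0.04 (SE 0.030, adjusted p = 0.412). These small rises depended on single libraries. The rise with both treatments was not called without siControl replicate 2 (0.07, adjusted p = 0.0713) or when siZIP10 plus DTPA replicate 3 was left out (0.07, adjusted p = 0.0708), and that with siZIP10 alone was not called without siControl replicate 2 (0.08, adjusted p = 0.0792), siControl replicate 3 (0.10, adjusted p = 0.052), siZIP10 replicate 1 (0.08, adjusted p = 0.0733) or siZIP10 replicate 3 (0.10, adjusted p = 0.0562).

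In the HSP90 system the co-chaperone Stip1 fell in every treated group, more than either HSP90 gene. Stip1 (ENSMUSG00000024966.9, chromosome 19, 7020702 to 7039967, minus strand) encodes the adaptor that joins HSP70 to HSP90. It had 121.2, 116 and 121.1 TPM in siZIP10 plus DTPA, 200.2, 187 and 199 TPM in siZIP10, 186 and 178 TPM in siControl plus DTPA, and 260.0, 259 and 245 TPM in siControl. All 4 groups were separate, lowest with both treatments, then with DTPA alone, then with siZIP10 alone, and highest in siControl. Stip1 fell with both treatments to 46.9% of siControl (−1.08, SE 0.035, adjusted p = 7.66e-10), with siZIP10 alone to 76.7% (−0.38, SE 0.035, adjusted p = 2.71e-05) and with DTPA alone to 71.4% (−0.48, SE 0.039, adjusted p = 1.31e-05). Within the knockdown DTPA left 61.2% of Stip1 (−0.70, adjusted p = 3.4e-08), and within DTPA the knockdown left 65.7% (−0.60, adjusted p = 4.47e-07).

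Hsp90aa1 (ENSMUSG00000021270.13, chromosome 12, 110690605 to 110702728, minus strand), the heat-inducible HSP90, was lower with each treatment alone than with both. It had 381, 375 and 394 TPM in siZIP10 plus DTPA, 352, 348 and 349 TPM in siZIP10, 351 and 349 TPM in siControl plus DTPA, and 450.0, 403 and 416 TPM in siControl. The siControl libraries were the highest, the libraries with both treatments came next, and the groups with 1 treatment overlapped each other below them. Hsp90aa1 fell with siZIP10 alone to 82.7% of siControl (−0.27, SE 0.037, adjusted p = 0.000342) and with DTPA alone to 82.7% (−0.27, SE 0.041, adjusted p = 0.000686). With both it fell to 90.6% (−0.14, SE 0.037, adjusted p = 0.00591), a call that other scalings did not give: the change was −0.05 when rescaled to nuclear protein-coding genes (adjusted p = 0.238), −0.05 with median-of-ratios scaling (adjusted p = 0.252) and 0.000319 with quantile normalization (adjusted p = 0.995). DTPA within the knockdown raised Hsp90aa1 by 0.13 (SE 0.037, adjusted p = 0.00978). The knockdown within DTPA raised it by 0.13 (SE 0.041, adjusted p = 0.0204), which was not called without siControl plus DTPA replicate 1 (0.14, adjusted p = 0.0739), siControl plus DTPA replicate 2 (0.13, adjusted p = 0.0905), nor when siZIP10 plus DTPA replicate 3 was left out (0.11, adjusted p = 0.0646).

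Hsp90ab1 (ENSMUSG00000023944.14, chromosome 17, 45567775 to 45573271, minus strand), the constitutive HSP90, had 543, 522 and 551 TPM in siZIP10 plus DTPA, 594, 578 and 597 TPM in siZIP10, 579 and 564 TPM in siControl plus DTPA, and 649, 622 and 635 TPM in siControl. Every treated library lay below every siControl library. Hsp90ab1 fell with both treatments to 84.8% of siControl (−0.24, SE 0.027, adjusted p = 1.81e-05), with siZIP10 alone to 92.8% (−0.11, SE 0.027, adjusted p = 0.0134) and with DTPA alone to 90.0% (−0.15, SE 0.030, adjusted p = 0.0038). The ratio of Hsp90aa1 to Hsp90ab1 in TPM was 0.711 ± 0.009 in siZIP10 plus DTPA (SD, n = 3), 0.593 ± 0.0084 in siZIP10 (n = 3), 0.612 ± 0.0086 in siControl plus DTPA (n = 2) and 0.666 ± 0.0244 in siControl (n = 3). The log2 ratio differed from siControl by 0.096 with both treatments (exact permutation p = 0.1, two-sided), by −0.17 with siZIP10 alone (exact permutation p = 0.1) and by −0.12 with DTPA alone (exact permutation p = 0.2). These p-values are the smallest that 3 against 3 and 2 against 3 libraries allow, so the design cannot reach 0.05, and adjusted over the 6 ratio tests they are 0.2, 0.2 and 0.24.

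**Figure D2:**
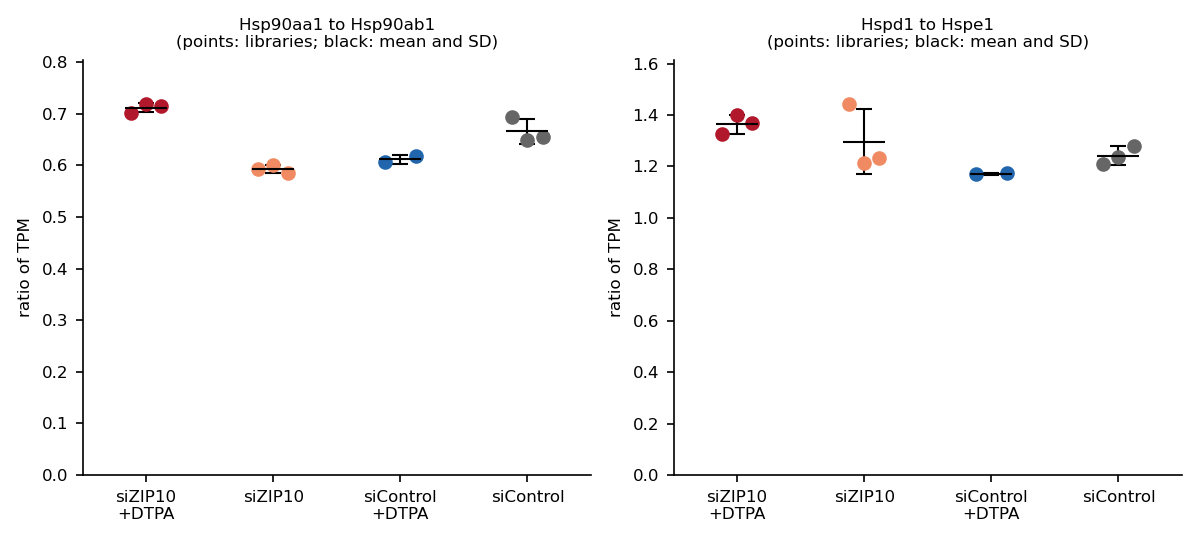
Ratio of Hsp90aa1 to Hsp90ab1 and of Hspd1 to Hspe1 in TPM (vertical axes start at 0) in siZIP10 plus DTPA, siZIP10, siControl plus DTPA and siControl. Points are libraries and black marks are the mean and SD. The HSP90 ratio is 0.711 in siZIP10 plus DTPA, 0.593 in siZIP10, 0.612 in siControl plus DTPA and 0.666 in siControl, and the HSP60 to HSP10 ratio has 1 siZIP10 library, at 1.44, above its other 2.

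The genes of the mitochondrial chaperonin both fell with both treatments. Hspe1 (ENSMUSG00000073676.4, chromosome 1, 55088132 to 55091307, plus strand), which encodes the lid HSP10, had 194, 189.6 and 205 TPM in siZIP10 plus DTPA, 239, 252 and 256 TPM in siZIP10, 272 and 277 TPM in siControl plus DTPA, and 302, 282 and 279.9 TPM in siControl. The libraries with both treatments were the lowest, those of siZIP10 came next, and those of siControl plus DTPA lay just under siControl. Hspe1 fell with both treatments to 68.0% of siControl (−0.55, SE 0.040, adjusted p = 4.3e-07) and with siZIP10 alone to 86.4% (−0.21, SE 0.040, adjusted p = 0.00288), and the change with DTPA alone was −0.07 (SE 0.045, adjusted p = 0.308). Hspe1 also fell with DTPA within the knockdown (−0.34, adjusted p = 2.7e-05) and with the knockdown within DTPA (−0.49, adjusted p = 6.29e-06).

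Hspd1 (ENSMUSG00000025980.14, chromosome 1, 55077835 to 55088243, minus strand), which encodes the chamber HSP60, had 257, 265 and 280.1 TPM in siZIP10 plus DTPA, 344, 305 and 316 TPM in siZIP10, 318 and 326 TPM in siControl plus DTPA, and 366, 349 and 358 TPM in siControl. The libraries with both treatments were again the lowest, and the groups with 1 treatment overlapped each other below siControl. Hspd1 fell with both treatments to 74.8% of siControl (−0.42, SE 0.045, adjusted p = 9.93e-06), with siZIP10 alone to 89.9% (−0.15, SE 0.045, adjusted p = 0.0249) and with DTPA alone to 90.1% (−0.15, SE 0.050, adjusted p = 0.0457). The call with DTPA alone was lost in 14 alternatives, among them leaving out any 1 siControl replicate or either siControl plus DTPA replicate, siZIP10 replicate 3 or siZIP10 plus DTPA replicate 2 (−0.17 to −0.13, adjusted p of 0.0558 to 0.199). The call with siZIP10 alone was lost without siControl replicate 1 (adjusted p = 0.0765), siControl replicate 3 (0.0634), siZIP10 replicate 2 (0.089) or siZIP10 replicate 3 (0.0758), with changes of −0.15 to −0.12. The ratio of Hspd1 to Hspe1 in TPM was 1.36 ± 0.0368 in siZIP10 plus DTPA (SD, n = 3), 1.30 ± 0.126 in siZIP10 (n = 3), 1.17 ± 0.0041 in siControl plus DTPA (n = 2) and 1.24 ± 0.0354 in siControl (n = 3). The log2 ratio differed from siControl by 0.14 with both treatments (exact permutation p = 0.1, the smallest possible), by 0.06 with siZIP10 alone (exact permutation p = 0.8; −0.02 without siZIP10 replicate 1) and by −0.08 with DTPA alone (exact permutation p = 0.2, the smallest possible), and adjusted over the 6 ratio tests these are 0.2, 0.8 and 0.24. Hspd1 and Hspe1 share 112 bases on opposite strands. A listed copy, Hspd1-ps3, held 15.1 to 64.6 TPM and varied more within groups than Hspd1 (19.1, 64.6 and 57.1 TPM in siZIP10 against 51.9, 21.8 and 15.1 TPM in siControl), so the split of reads between Hspd1 and this copy is uncertain. The copy averaged 46.8 TPM in siZIP10 plus DTPA, 46.9 TPM in siZIP10, 50.3 TPM in siControl plus DTPA and 29.6 TPM in siControl, with overlapping libraries. The siZIP10 library lowest in the copy (19.1 TPM) was the highest of its group in Hspd1 (344 TPM). The part of this split in the falls of Hspd1 with 1 treatment was not tested.

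Counted over the 10 genes, both treatments together lowered 9 and raised 1, Hspa8, with a median log2 change of −0.45. Over all 11379 genes tested, 66.6% were called in that comparison, 39.9% as lower and 26.7% as higher, and the median was −0.08. With siZIP10 alone 7 genes fell, 1 rose (Hspa8) and Hsf1 and Dnajb1 were not called, with a median of −0.15, where 30.6% of all genes were called, 17.5% as lower and 13.1% as higher, with a median of −0.01. With DTPA alone 7 fell and Hsf1, Hspa8 and Hspe1 were not called, with a median of −0.16, where 28.8% of all genes were called, 18.8% as lower and 9.98% as higher, with a median of −0.04. Within the knockdown, DTPA lowered 8, raised Hsp90aa1 and left Hspa8 uncalled (60.4% of all genes called, 37.3% as lower and 23.1% as higher, median −0.06, against −0.30 over the 10 genes). Within DTPA, the knockdown lowered 7, raised Hsp90aa1 and left Hspa8 and Dnaja1 uncalled (53.1% of all genes called, 31.7% as lower and 21.3% as higher, median −0.04, against −0.29 over the 10 genes). These comparisons share libraries, so their counts are not independent. Hspd1 is counted among the falls, although the split of its reads with a copy is uncertain.

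**Figure D3:**
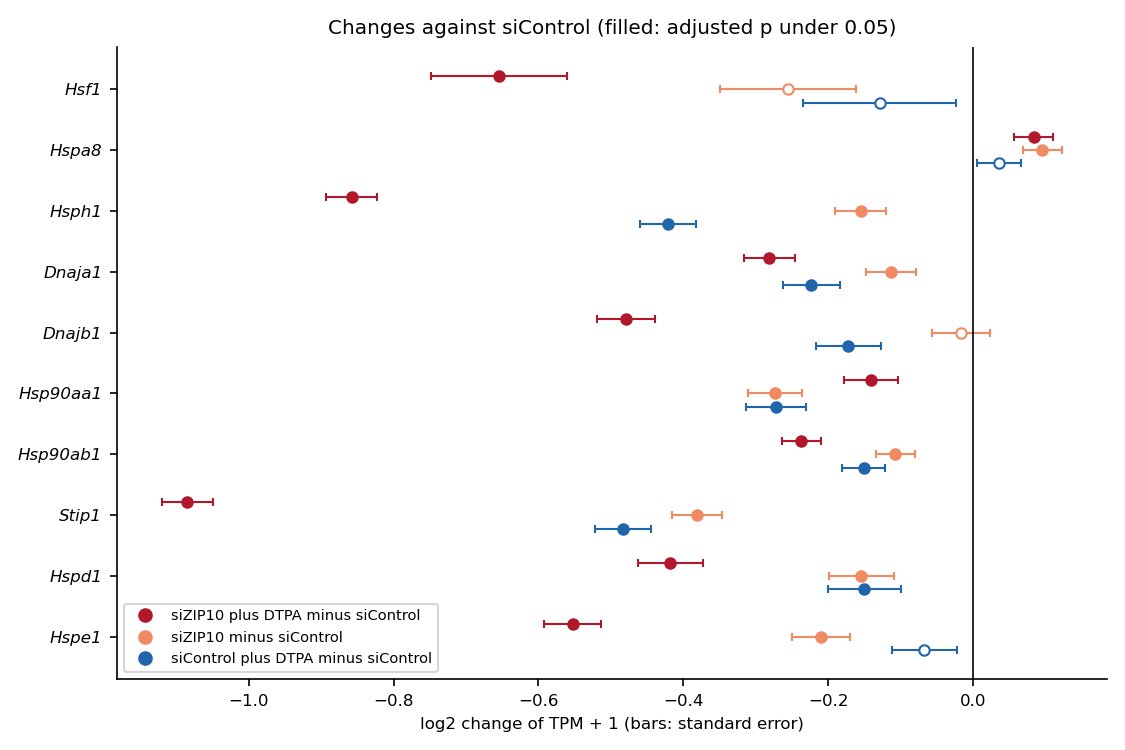
Log2 change of TPM + 1 of each heat shock gene against siControl (horizontal axis) with its standard error, for siZIP10 plus DTPA, siZIP10 and siControl plus DTPA. Filled points have an adjusted p under 0.05. Stip1 lies farthest to the left with both treatments, at −1.08, and Hspa8 is the gene right of 0, at 0.08 with both treatments.

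The count with siZIP10 alone depended on single libraries: the 8 genes called there became 6 without siControl replicate 3 or any 1 siZIP10 replicate, and 9 without siZIP10 plus DTPA replicate 2. How many of all called genes were higher also moved with scaling: 40.1% with both treatments (50.2% under quantile normalization), 42.9% with siZIP10 alone (54.3%) and 34.7% with DTPA alone (51.1%). Rescaled to nuclear protein-coding genes, the share was 50.2% for DTPA within the knockdown against 38.2%, and 53.2% for the knockdown within DTPA against 40.2%. Within the knockdown, the small change of Hspa8 with DTPA (−0.01, SE 0.027, adjusted p = 0.719) became a rise of 0.08 under that rescaling (adjusted p = 0.0154), of 0.07 under median-of-ratios scaling (adjusted p = 0.0347) and of 0.05 with voom on the recovered reads (adjusted p = 0.031). With the knockdown within DTPA, Hspa8 was not called in the main fit (0.05, SE 0.030, adjusted p = 0.214). It was called higher there under that rescaling (0.13, adjusted p = 0.00196) and median-of-ratios scaling (0.10, adjusted p = 0.00922). The same held under quantile normalization (0.12, adjusted p = 0.0058) and with voom (0.095, adjusted p = 0.000675). The falls of Hsp90ab1 (−0.13) and Dnaja1 (−0.17) with DTPA within the knockdown were not called under that rescaling (−0.04, adjusted p = 0.128, and −0.08, adjusted p = 0.059), and those of Dnaja1 and Hspd1 (−0.26) were not called under quantile normalization (−0.03, adjusted p = 0.357, and −0.09, adjusted p = 0.0892). The fall of Hsp90ab1 with the knockdown within DTPA (−0.09, SE 0.030, adjusted p = 0.0356) was lost in 12 alternatives, including the leaving out of siControl replicate 3, either siControl plus DTPA replicate, or siZIP10 plus DTPA replicate 1 or 2 (adjusted p of 0.0505 to 0.205).

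Whether DTPA acted differently with and without the knockdown was tested as an interaction, the DTPA effect in siZIP10 cells minus that in siControl cells. It was called for 5 of the 10 genes, 4 of them below 0 and 1 above, where 32.4% of all genes were called, 20.4% below 0 and 12.0% above. The median was −0.17, and −0.02 over all genes. Dnajb1 (−0.29, SE 0.061, adjusted p = 0.00402), Hsph1 (−0.28, SE 0.053, adjusted p = 0.0021), Hspe1 (−0.28, SE 0.060, adjusted p = 0.00529) and Stip1 (−0.22, SE 0.053, adjusted p = 0.0088) fell more with both treatments than the separate changes add up to. For Dnajb1 the separate changes add to −0.19 and the change with both was −0.48, and for Stip1 they add to −0.86 and the change with both was −1.08. Hsp90aa1 went the other way (0.40, SE 0.055, adjusted p = 0.000277), since its separate changes add to −0.55 and its change with both was −0.14. Hsf1 (−0.27, SE 0.14, adjusted p = 0.18), Hspd1 (−0.11, adjusted p = 0.23), Hspa8 (−0.05, adjusted p = 0.406), Dnaja1 (0.05, adjusted p = 0.474) and Hsp90ab1 (0.02, adjusted p = 0.742) were not called. The interaction of Stip1 was not called under quantile normalization (−0.10, adjusted p = 0.105), whereas that of Dnaja1 then was (0.14, adjusted p = 0.0327), as was that of Hsp90ab1 (0.10, adjusted p = 0.0405) after values were rescaled to nuclear protein-coding genes. Among all genes called here, 37.1% were above 0, and 54.3% after that rescaling.

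**Figure D4:**
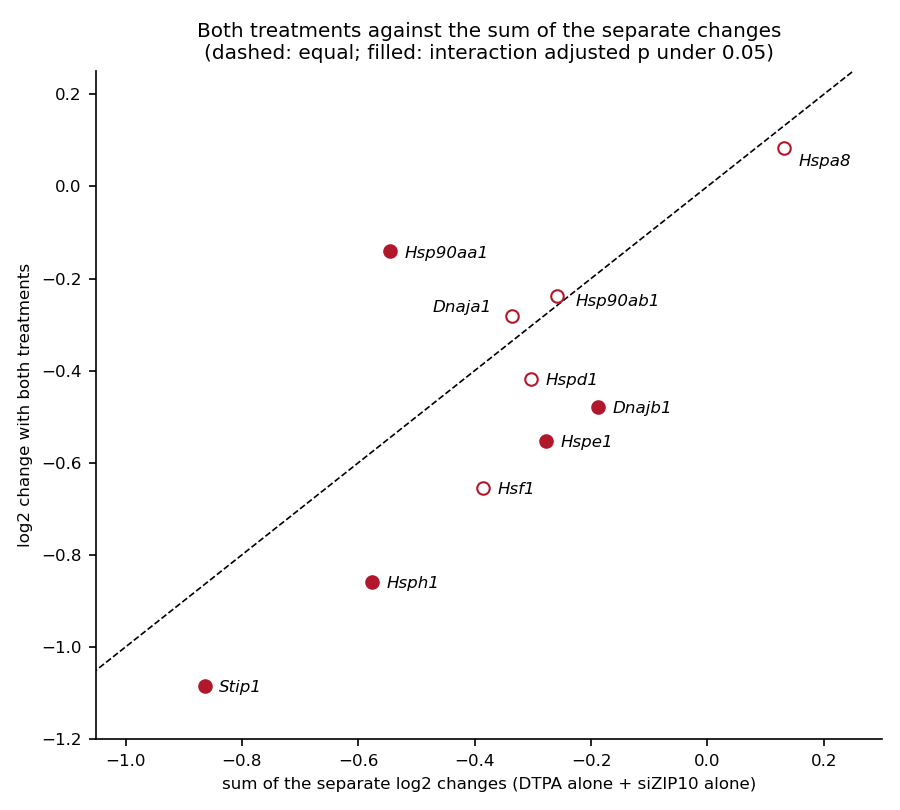
Log2 change with both treatments (vertical axis) against the sum of the changes with DTPA alone and siZIP10 alone (horizontal axis), all against the same siControl libraries, 1 point a gene. Points on the dashed line would be additive. Hsp90aa1 lies 0.40 above the line, and Dnajb1, Hsph1, Hspe1 and Stip1 lie 0.22 to 0.29 below it.

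Of 68 other chaperone genes in 9 role groups, 59 passed the level filter. With both treatments 42 were lower, 7 higher and 10 not called (median −0.35), where 39.9% of all genes were called lower and 26.7% higher. The 7 include Hsf4, which passed the level filter only through the siZIP10 plus DTPA libraries, where it was highest. With siZIP10 alone 19 were lower, 4 higher and 36 not called (median −0.08), against 17.5% lower and 13.1% higher over all genes. With DTPA alone 25 were lower, 2 higher and 32 not called (median −0.12), against 18.8% lower and 9.98% higher over all genes. The 27 called with DTPA alone became 17 without siControl plus DTPA replicate 1 and 16 without its replicate 2. The role groups below are read against the same 66.6% of all genes called with both treatments. Of 9 partners of HSP70, 8 fell with both treatments (39.9% of all genes fell). Hspbp1, which helps HSP70 release its nucleotide, had 43.9 TPM in siZIP10 plus DTPA, against 85.1 TPM in siControl (−0.94, adjusted p = 1.27e-07), Bag2 23.0 against 38.3 TPM (−0.71, adjusted p = 6.58e-08), the ubiquitin ligase gene Stub1 35.2 against 51.8 TPM (−0.54, adjusted p = 2.2e-06), Bag4 11.7 against 15.7 TPM (−0.40, adjusted p = 6.97e-05), and Bag1 571 against 716 TPM (−0.33, adjusted p = 1.61e-06). The ninth, Bag3, a known target of HSF1, had 95.8 TPM in siZIP10 plus DTPA and 96.4 TPM in siControl (−0.01, adjusted p = 0.846), but under other scalings it rose (0.08 with median-of-ratios scaling, adjusted p = 0.0471, and 0.175 with quantile normalization, adjusted p = 0.000617). With siZIP10 alone Bag3 rose to 109.1 TPM (0.18, adjusted p = 0.00651).

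Among 6 further J-domain genes 4 fell with both treatments (39.9% of all genes fell). Dnajb2 had 73.0 TPM in siZIP10 plus DTPA, against 137 TPM in siControl (−0.90, adjusted p = 3.22e-10), Dnajb4 25.0 against 35.9 TPM (−0.51, adjusted p = 2.61e-06), Dnajb6 64.3 against 90.0 TPM (−0.48, adjusted p = 8.66e-07) and Dnaja2 113 against 132 TPM (−0.22, adjusted p = 0.000137). The HSP110 relative Hspa4 had 166 TPM in siZIP10 plus DTPA, against 210.0 TPM in siControl (−0.33, adjusted p = 5.54e-06), and the HSP70 relative Hspa14 had 17.7 against 26.6 TPM (−0.57, adjusted p = 4.07e-06). Hspa2, an HSP70 gene best known from testis, had 17.3 TPM in siZIP10 plus DTPA and 14.6 TPM in siControl (0.23, adjusted p = 0.018), a call lost without siControl replicate 2 (0.16, adjusted p = 0.0731) or when siZIP10 plus DTPA replicate 1 was left out (0.20, adjusted p = 0.0652). Of 9 HSP90 co-chaperone genes 5 fell and 3 rose, where 39.9% of all genes fell and 26.7% rose. Fkbp4, an immunophilin of steroid receptor complexes, had 69.4 TPM in siZIP10 plus DTPA, against 109.0 TPM in siControl (−0.65, adjusted p = 3.78e-07), Chordc1 had 44.7 against 58.2 TPM (−0.37, adjusted p = 4.94e-05), and Ptges3, the co-chaperone p23, had 124 against 161 TPM (−0.37, adjusted p = 1.93e-07). Unc45a, a myosin chaperone, had 50.5 TPM in siZIP10 plus DTPA and 39.3 TPM in siControl, a rise (0.35, adjusted p = 5.05e-05).

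All 8 subunit genes of TRiC, the cytosolic chaperonin that folds actin and tubulin, fell with both treatments (−0.63 to −0.13), where 39.9% of all genes fell, although the smallest of these, Cct2, was not called under 3 other scalings (−0.04 to −0.01). Cct3 had 109.3 TPM in siZIP10 plus DTPA, against 170.0 TPM in siControl (−0.63, adjusted p = 1.55e-08), Tcp1 107.9 against 161 TPM (−0.57, adjusted p = 3.45e-08), Cct7 220.1 against 313 TPM (−0.51, adjusted p = 5.45e-08) and Cct8 437 against 572 TPM (−0.39, adjusted p = 1.73e-06). Prefoldin, which passes clients to TRiC, fell in 5 of 6 subunit genes (39.9% of all genes fell). Pfdn6 had 52.4 TPM in siZIP10 plus DTPA, against 88.1 TPM in siControl (−0.74, adjusted p = 3.68e-06), Pfdn1 138 against 203 TPM (−0.56, adjusted p = 1.18e-07), Pfdn2 29.0 against 42.0 TPM (−0.52, adjusted p = 2.49e-05) and Pfdn5 222 against 308 TPM (−0.47, adjusted p = 3.73e-07). Of 13 mitochondrial chaperone and protease genes 9 fell and 1 rose, where 39.9% of all genes fell and 26.7% rose, so the 10 called in all lie near the 66.6% of all genes called. Dnajc19, a J-domain protein of the import motor, had 13.9 TPM in siZIP10 plus DTPA, against 25.9 TPM in siControl (−0.85, adjusted p = 1.31e-07), Clpx, an unfoldase, had 51.2 against 85.4 TPM (−0.73, adjusted p = 6.29e-09), Dnaja3, a J-domain partner of Hspa9, had 22.8 against 38.2 TPM (−0.72, adjusted p = 3.11e-07), and Hspa9, the mitochondrial HSP70, had 82.1 against 104.9 TPM (−0.35, adjusted p = 5.54e-06). Htra2, a protease of the intermembrane space, had 184 TPM in siZIP10 plus DTPA and 128 TPM in siControl, a rise (0.52, adjusted p = 6.33e-07). The protease gene Lonp1 fell with both treatments (−0.62, adjusted p = 5e-08), with siZIP10 alone (−0.20, adjusted p = 0.00156) and with DTPA alone (−0.41, adjusted p = 3.08e-05).

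Of the other heat shock factor genes, Hsf2 and Hsf4 were higher with both treatments. Hsf4 had 2.34 TPM in siZIP10 plus DTPA and 1.06 TPM in siControl, a rise (0.70, adjusted p = 0.00405) at a level near the filter. It had 1.165 TPM in siZIP10 and 0.608 TPM in siControl plus DTPA. Without the siZIP10 plus DTPA libraries Hsf4 would not have reached the filter's mean of 1 TPM. Its call is therefore not independent of the filter, and it is among the 7 higher genes counted above. Hsf2 had 9.35 TPM in siZIP10 plus DTPA and 7.67 TPM in siControl (0.26, adjusted p = 0.0167), a call lost without siControl replicate 3 (0.22, adjusted p = 0.0613) or when siZIP10 plus DTPA replicate 3 was left out (0.24, adjusted p = 0.0501). Of the HSP70 and small heat shock genes induced by heat, 5 had few or no reads in any group. Hspa1a had 0 reads in 9 of 11 libraries and at most 1 read, and Hspa1b had 0 to 5 reads. These near-identical genes can exchange reads. How reads that match both genes were counted is not given in the sources used here, so their levels are uncertain. Hspb1, Hspb8 and Cryab, which encode small heat shock proteins, had 0 reads in every library, where 3 reads would amount to at most 0.469, 0.248 and 0.327 TPM (counting error only). The small heat shock gene Hspb6 was measured, with 5.77 TPM in siZIP10 plus DTPA, against 9.77 TPM in siControl (−0.67, adjusted p = 7.84e-05).

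**Figure D5:**
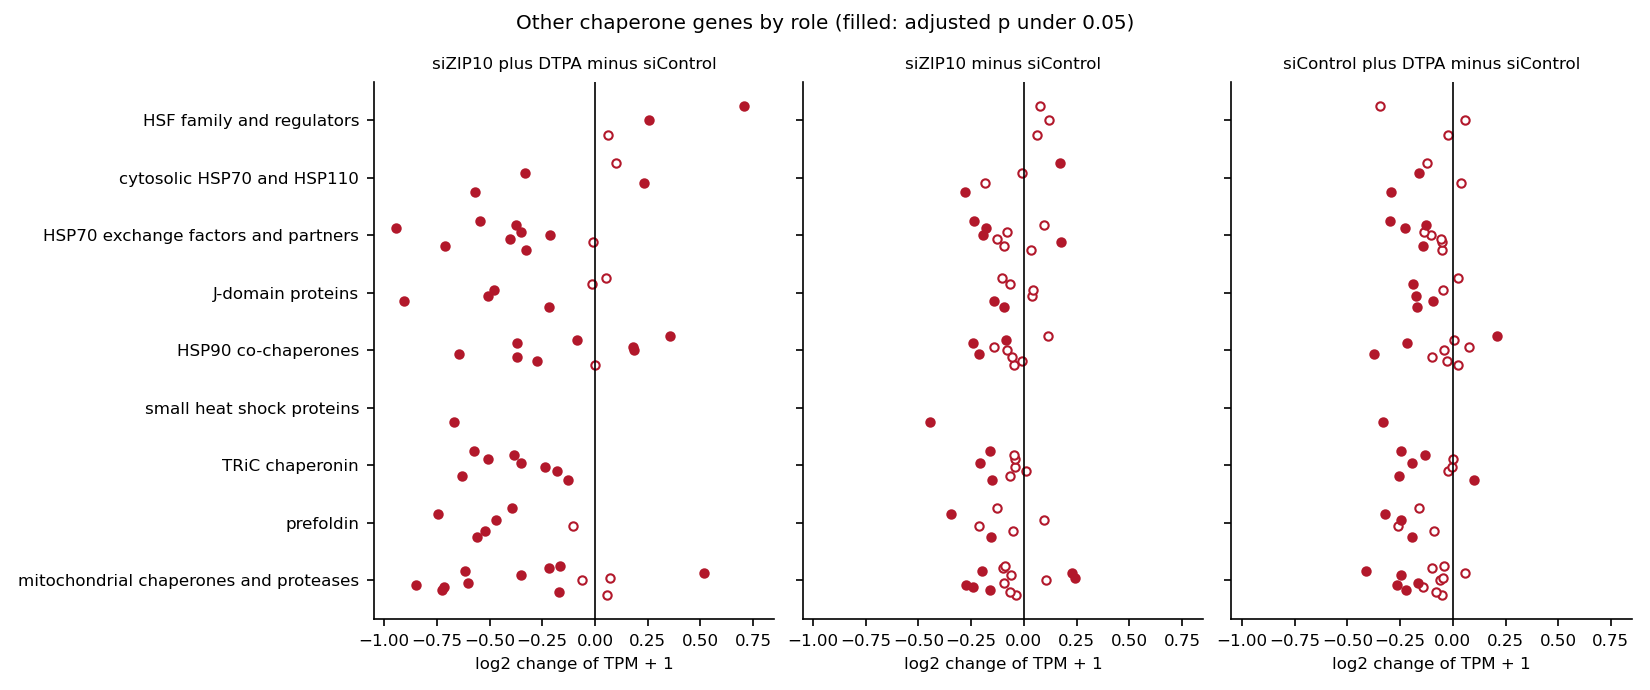
Log2 change of TPM + 1 against siControl (horizontal axis) of 59 other chaperone genes, grouped by role, 1 point a gene, for siZIP10 plus DTPA, siZIP10 and siControl plus DTPA. Filled points have an adjusted p under 0.05. With both treatments 42 points are filled left of 0 and 7 right of it, among them Htra2 at 0.52 in the mitochondrial group. Hsf4 is also among the 7, and it passed the level filter only through the siZIP10 plus DTPA libraries.

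Over the 11 libraries, which form 4 groups, the patterns of the members were described by Pearson's r of log2(TPM + 1), with no test. Hsph1 was most like Stip1 among the members (r = 0.977), Dnajb1 like Hsph1 (0.968), Dnaja1 like Hsp90ab1 (0.957), Hspd1 like Stip1 (0.956), Hspe1 like Stip1 (0.927) and Hsf1 like Stip1 (0.884). Hsp90aa1 had no close partner, with Dnaja1 nearest at 0.519, and Hspa8 was negative with every member, from −0.698 with Hsf1 to −0.266 with Dnajb1. Among all tested genes, the nearest to Stip1 were Rnf34 (0.997), Tubb5 (0.997) and Hnrnpab (0.996), the nearest to Hsph1 were Utp6, 1700001L05Rik and Klhl7 (0.997 each) and the nearest to Hspa8 was Trim21 (0.958). The libraries of a group share their treatment and make-up, so the points are not independent.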

How the data were processed

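RNA-seq libraries of 4 groups with 3 labelled biological replicates each were used, except 1 siControl plus DTPA library whose 55487 values equalled those of siZIP10 replicate 1 (no other pair of libraries shared over 0.0121% of its values above 0). The deposited values are TPM (abundances per gene length that sum to 1000000 in each library), made by the authors with Trimmomatic 0.33, FastQC, HISAT2 2.1.0, featureCounts and edgeR on mm10, per the submitters' processing notes. The sources used here do not give the annotation, settings or strand setting. The kit was a stranded mRNA kit, per the labels' protocols. Multiplied by the exon length of GENCODE release 21 genes, 98.9% to 99.1% of low values (up to 20 reads) gave whole reads within 0.1 read, which gave depths of 19.62 M to 24.68 M reads and a separate test on reads.

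Genes with a mean TPM of at least 1 over 11 libraries (11379) were tested as log2(TPM + 1) with limma 3.58.1 (trend, 4 group means, 7 residual degrees of freedom) in R 4.3.3, with Benjamini-Hochberg adjusted p under 0.05 as the threshold in each of 6 comparisons. Fold changes on this scale understate the change of low genes such as Hsf1 and Hsf4. Percentages of siControl are ratios of mean TPM. The fit was tested on simulated data. Ratios of 2 genes were compared by two-sided exact permutation tests (scipy 1.17.1). Tables and figures were made with pandas 2.3.3, matplotlib 3.10.9 and numpy 2.4.6 under Python 3.11.15. Promoter windows come from RefSeq (GRCm38.p6), and gene positions from GENCODE. Alternatives were a pseudocount of 0.1, no filter, a mean TPM of at least 5, rescaling to nuclear protein-coding genes, median-of-ratios and quantile scaling, no trend, only the groups compared, voom on recovered reads, a replicate block, the duplicated library kept, and each library left out. The text names all members and, of the other chaperones, Hspa1a, Hspa1b, Hspb1, Bag3, Hspa9 and Hspa4 and the called genes of each role group with the largest changes, up to 4 per comparison: with both treatments all of these, and Bag1, Htra2 and Cct2 through other comparisons. Hspb8 and Cryab are named as the other small heat shock genes without reads. The members and lists were chosen with earlier results of these data known. Nothing says that replicates came from separate thaws or days, so p-values measure the spread between these libraries. A few values of genes outside the 10 members are not reported here.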

Additional observations from a re-analysis of the deposited data

Results flagged for a closer look

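The effect of DTPA differed between siZIP10 and siControl cells for 5 of the 10 heat shock genes, by limma's interaction term with p adjusted over 11379 genes, of which 32.4% were called (20.4% below 0 and 12.0% above). The log2 DTPA effect in siZIP10 cells minus that in siControl cells was −0.291 for Dnajb1 (adjusted p = 0.00402), −0.282 for Hsph1 (adjusted p = 0.0021), −0.276 for Hspe1 (adjusted p = 0.00529) and −0.22 for Stip1 (adjusted p = 0.0088). For these 4 genes DTPA lowered the level more in siZIP10 cells than in siControl cells. Hsp90aa1 had a positive value, 0.404 (adjusted p = 0.000277): its change with DTPA was 0.13 in siZIP10 cells and −0.27 in siControl cells. The siControl plus DTPA group held 2 libraries, and with the duplicated library kept in it the value of Hspe1 was −0.208 (adjusted p = 0.0738).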

How the results depend on the processing

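Over 1310 values of the 10 genes under alternatives, 1233 kept their side of the threshold, 64 lost and 9 gained a call, and 4 reversed. A reversal is a change of direction where the main or the alternative value was called. A change of sign between values not called was counted as kept. The reversals were Hsp90aa1 with both treatments under quantile normalization (0.000319) and Hspa8 with DTPA within the knockdown under rescaling to nuclear protein-coding genes (0.0764), median-of-ratios scaling (0.0657) and voom (0.0507). Of 4448 values of other named chaperones 4226 were kept in the same sense and 3 reversed: Bag3 with both treatments (0.082 with median-of-ratios scaling, 0.175 with quantile normalization) and Ptges3 with DTPA within the knockdown (0.0556 with quantile normalization). With siZIP10 alone 8 members were called, and 5 with no filter, without the trend or with the duplicated library kept; leaving out 1 library gave 6 to 9. With DTPA alone 27 other chaperones were called, and 16 to 27 when 1 library was left out, with 16 without siControl plus DTPA replicate 2 and 17 without replicate 1. With the duplicated library kept, the log2 ratio of Hspd1 to Hspe1 with DTPA alone was 0.016 instead of −0.084. The cause of these differences was not tested. Replicate numbers did not pair the libraries (15 pairs, correlation of deviations −0.0602 to 0.0607); a replicate block called 10 members with both treatments, 8 with siZIP10 alone and 6 with DTPA alone, and changed 1 of 60 member calls, Hspd1 with DTPA alone (−0.143, adjusted p = 0.0838). Depth limits Hsf1, with 258 to 482 reads, more than the other members, with at least 1208.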
